A study of Mus musculus with 21 samples.

Results

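The genes examined encode tumour necrosis factor (Tnf), the IL-6 family cytokines interleukin-6 (Il6) and oncostatin M (Osm), the anti-inflammatory cytokine interleukin-10 (Il10), and 4 chains from which the IL-12 family of cytokines is built (Il12b, Il23a, Il27 and Ebi3). They were chosen by gene symbol and made up 8 of the 47069 rows of a count table of mouse bone marrow-derived macrophages, which are grown in culture from marrow cells. Of the 8 genes, 7 had enough counts to be tested. Il23a did not.

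Marrow of C57BL/6 mice was cultured for 5 days in M-CSF-conditioned medium, and the resulting macrophages were held with a cytokine or without one for 36 h. There were 7 groups of 3 libraries: wild-type cells with no cytokine, with IL-33 or with IL-4, ST2-/- cells with no cytokine or with IL-33, and Cx3cr1CRExGata3fl/fl cells with no cytokine or with IL-33. The last genotype, called Gata3-floxed here, carries a floxed Gata3 gene and a Cre recombinase named for Cx3cr1, a chemokine receptor gene of monocytes and macrophages. The labels do not say whether the 3 libraries of a group came from separate animals, so a p-value here speaks only to the spread between libraries, part of which may be technical.

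Libraries held between 32.6 and 48.7 M (mega) counts. Gene-level counts do not check either deletion. Il1rl1, which encodes the IL-33 receptor ST2, stood at 15.7 CPM (the unit of all levels here, counts scaled to library size by edgeR) in unstimulated wild-type cells and at 17.4 CPM in unstimulated ST2-/- cells, and Gata3 had 17 counts over the 3 unstimulated wild-type libraries and 32 over the 3 unstimulated Gata3-floxed libraries. Xist, expressed from the inactive X chromosome, was at 277 to 376 CPM in the 6 Gata3-floxed libraries and peaked at 0.0462 CPM among the other 15, while the Y-linked Ddx3y showed the reverse, so sex and the floxed genotype cannot be told apart. All 8 macrophage markers examined were detected in every group, with summed levels of 27775 to 30681 CPM in unstimulated wild-type libraries.

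TNF is made as a membrane protein, is shed by the protease ADAM17 and acts through the receptors TNFR1 and TNFR2. IL-6 and oncostatin M signal through the shared receptor chain gp130 and the kinases that activate STAT3, and IL-10 also acts through STAT3, by its own receptor, to restrain cytokine production in macrophages. IL-12 family cytokines are pairs of chains: p40 (Il12b) joins p19 (Il23a) to form IL-23, and EBI3 joins p28 (Il27) to form IL-27. Transcription of many of these genes in macrophages is driven by NF-kB, AP-1 and C/EBP factors, and their mRNAs are often short-lived because of AU-rich elements in the 3′ untranslated region.

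The AU-rich element is shown first, because Tnf had more copies of its extended form than any other of the 8 genes. In GENCODE M21 (GRCm38), the 3′ untranslated region of Tnf (764 bases, gene at chr17:35199381-35202007, minus strand) held 8 copies of ATTTA, and 0.297% of 3033 transcripts with a 3′ region of similar length held as many. It also held 5 copies of the nonamer TTATTTATT, the extended form of the element. Il27 (chr7:126589010-126594941, minus strand) had 5 copies of ATTTA in only 285 bases, and 0.397% of regions of similar length held at least as many. It also had 2 nonamers, where 1.84% of those regions held any. The densest 30 bases of each are shown with every ATTTA in capitals, bases 437 to 466 of the Tnf region and bases 176 to 205 of the Il27 region.
Tnf: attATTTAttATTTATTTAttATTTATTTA
Il27: ccagatATTTAtttcttggatATTTATTTA
The other members had 10 copies (Il6, chr5:30013114-30019981), 6 copies (Il10 at chr1:131019845-131024974, Osm at chr11:4236420-4241026, Il12b at chr11:44400063-44414033 and Il23a at chr10:128296139-128298752) and 1 copy (Ebi3, chr17:55952640-55957022). At least as many were found in 2.26% (Il6), 2.09% (Il10), 5.2% (Osm), 2.3% (Il12b), 1.72% (Il23a) and 29.7% (Ebi3) of regions of similar length. Il23a also had 1 nonamer, where 3.83% of such regions held any. Il6, Il10, Osm, Il12b and Ebi3 had 0 nonamers.

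Promoters are shown for the members whose levels moved with IL-33 or IL-4 and that RefSeq's GRCm38.p6 table lists, 4 of the 8 genes. Each is the 250 bases before the RefSeq transcript start, read 5′ to 3′ on the strand of the gene, with matches to the motifs searched in capitals. The windows are chr17:35202008-35202257 on the minus strand (Tnf), chr5:30012864-30013113 on the plus strand (Il6), chr11:44399813-44400062 on the plus strand (Il12b) and chr17:55952373-55952622 on the plus strand (Ebi3).
Tnf: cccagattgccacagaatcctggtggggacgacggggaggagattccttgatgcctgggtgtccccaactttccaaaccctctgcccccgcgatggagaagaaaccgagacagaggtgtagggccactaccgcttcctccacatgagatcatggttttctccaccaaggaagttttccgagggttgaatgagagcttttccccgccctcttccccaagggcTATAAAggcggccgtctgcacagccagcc
Il6: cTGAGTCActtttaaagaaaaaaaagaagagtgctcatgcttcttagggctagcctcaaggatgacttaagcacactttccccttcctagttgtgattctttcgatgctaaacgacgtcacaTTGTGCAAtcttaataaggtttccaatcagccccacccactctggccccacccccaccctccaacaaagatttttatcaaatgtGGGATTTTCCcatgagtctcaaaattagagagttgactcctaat
Il12b: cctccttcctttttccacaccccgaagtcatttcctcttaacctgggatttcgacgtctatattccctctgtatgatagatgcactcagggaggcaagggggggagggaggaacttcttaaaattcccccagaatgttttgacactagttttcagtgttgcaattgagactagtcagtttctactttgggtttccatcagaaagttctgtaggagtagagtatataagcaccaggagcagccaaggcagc
Ebi3: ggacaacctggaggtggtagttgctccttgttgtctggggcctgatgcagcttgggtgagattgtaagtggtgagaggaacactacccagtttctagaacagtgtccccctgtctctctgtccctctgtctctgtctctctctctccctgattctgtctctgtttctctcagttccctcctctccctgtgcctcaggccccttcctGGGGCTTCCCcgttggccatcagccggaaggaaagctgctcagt
The motifs, searched on both strands, were the kB consensus, AP-1 (TGANTCA), the STAT element TTCNNNGAA, the STAT6 element TTCNNNNGAA, C/EBP (TTGCNNAA) and TATAAA. The shares of 32851 mouse promoter windows of this length that held them were 7.25% (kB), 6.75% (AP-1), 7.02% (STAT), 5.85% (STAT6), 9.56% (C/EBP) and 12.4% (TATAAA). The Tnf window held TATAAA at position -29, counted from the start. In the Il6 window an AP-1 match began at -249, a C/EBP match at -128 and a kB match at -44. The Ebi3 window held a kB match at -44, and these letters were not found in the Il12b window. A match describes the sequence and is not evidence of binding.

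In unstimulated wild-type macrophages the length-scaled level of Ebi3 was far above that of its partner chain. Per kilobase of exon, mean levels were 30.8 CPM for Ebi3, 5.00 for Tnf, 2.43 for Osm, 2.32 for Il10, 0.930 for Il27, 0.229 for Il12b, 0.0162 for Il23a and 0.00731 for Il6. The ratio of Ebi3 to Il27 on this scale was 35.9 ± 10.9 (SD, n = 3), and 53.1 ± 9.34 with IL-4, with overlapping libraries. Il23a had 9 counts over all 21 libraries and 0 in 16 of them, so the p19 chain of IL-23 was near the limit of detection in every group, where 1 count is worth 0.0203 to 0.0316 CPM. Il12a, the p35 chain of IL-12, was also too low to be tested.

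**Figure D1:**
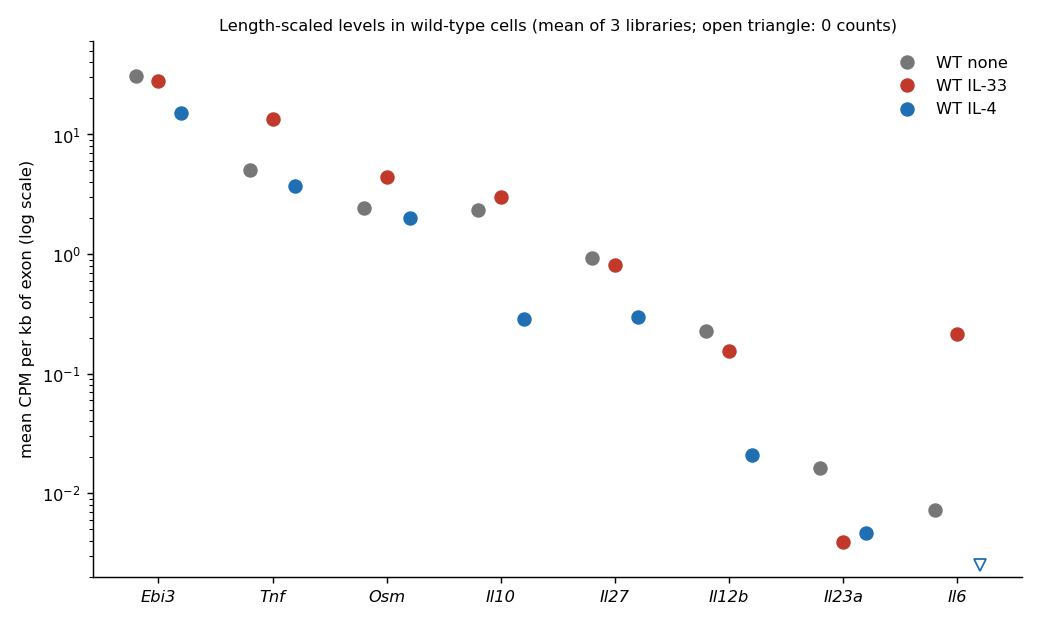
Mean CPM per kilobase of exon (log axis) of the 8 cytokine genes in wild-type cells with no cytokine (grey), IL-33 (red) or IL-4 (blue), each the mean of 3 libraries, with an open triangle where a group had 0 counts. Ebi3 was highest in all 3 conditions, and Il6 was at 0.00731 without cytokine and at 0.213 with IL-33.

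In wild-type cells the question was how IL-33, an alarmin cytokine, changed these genes. Tnf rose 2.69-fold, Osm rose 1.82-fold, and Il6 rose from near absence to a low level. Il10 and the IL-12 family chains Il12b, Il27 and Ebi3 did not pass the test. Of the 7 genes tested, 3 were called higher and 0 lower at an adjusted p below 0.05, where 18.5% of all 14473 genes tested were called higher and 35.4% in either direction. The median log2 change was 0.39 over the 7 genes and -0.000909 over all genes. Il6 had enough counts to be tested only through libraries with IL-33, and no other library held more than 4 counts. Its place among the 3 calls was therefore not independent of its rise.

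Tnf stood at 7.95, 8.41 and 8.24 CPM in the unstimulated libraries and at 25.8, 20.0 and 20.4 CPM with IL-33. All 3 IL-33 libraries were above all 3 controls, and the lowest of them was over every other unstimulated or IL-4 library of the data set. The log2 change was 1.43 ± 0.19 (SE), with an adjusted p of 2.5e-06 in edgeR's quasi-likelihood test.

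Osm, whose product acts on stromal cells, hepatocytes and macrophages, stood at 6.45, 5.68 and 4.41 CPM without cytokine and at 12.4, 8.30 and 9.40 CPM with IL-33. The groups did not overlap. The log2 change was 0.86 ± 0.16 (edgeR adjusted p = 0.000204).

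Il6 had 1, 1 and 0 counts in the unstimulated libraries and 27, 17 and 15 counts with IL-33. The IL-33 libraries were all higher, but their mean was only 0.518 ± 0.170 CPM (SD, n = 3). The ratio was 29.8, with a 95% interval of 7.88 to 251 that covers counting error only, and the edgeR adjusted p was 0.00251. Per kilobase, Il6 with IL-33 (0.213 CPM) was still below Tnf with IL-33 (13.5 CPM) in the same libraries.

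Il10 stood at 3.14, 2.75 and 3.21 CPM without cytokine and at 3.91, 4.15 and 3.83 CPM with IL-33. The libraries did not overlap, yet the change was not called (log2 0.39, 95% interval -0.15 to 0.92, edgeR adjusted p = 0.271). Ebi3 was at 35.6 ± 2.94 CPM without cytokine and 32.1 ± 1.15 CPM with IL-33 (SD, n = 3), a log2 change of -0.15 with an interval of -0.34 to 0.04 (adjusted p = 0.226 in edgeR). Il27 (log2 change -0.19, interval -0.90 to 0.52) and Il12b (-0.55, interval -1.91 to 0.80) were also not called, and the wide intervals reflect their low counts.

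**Figure D2:**
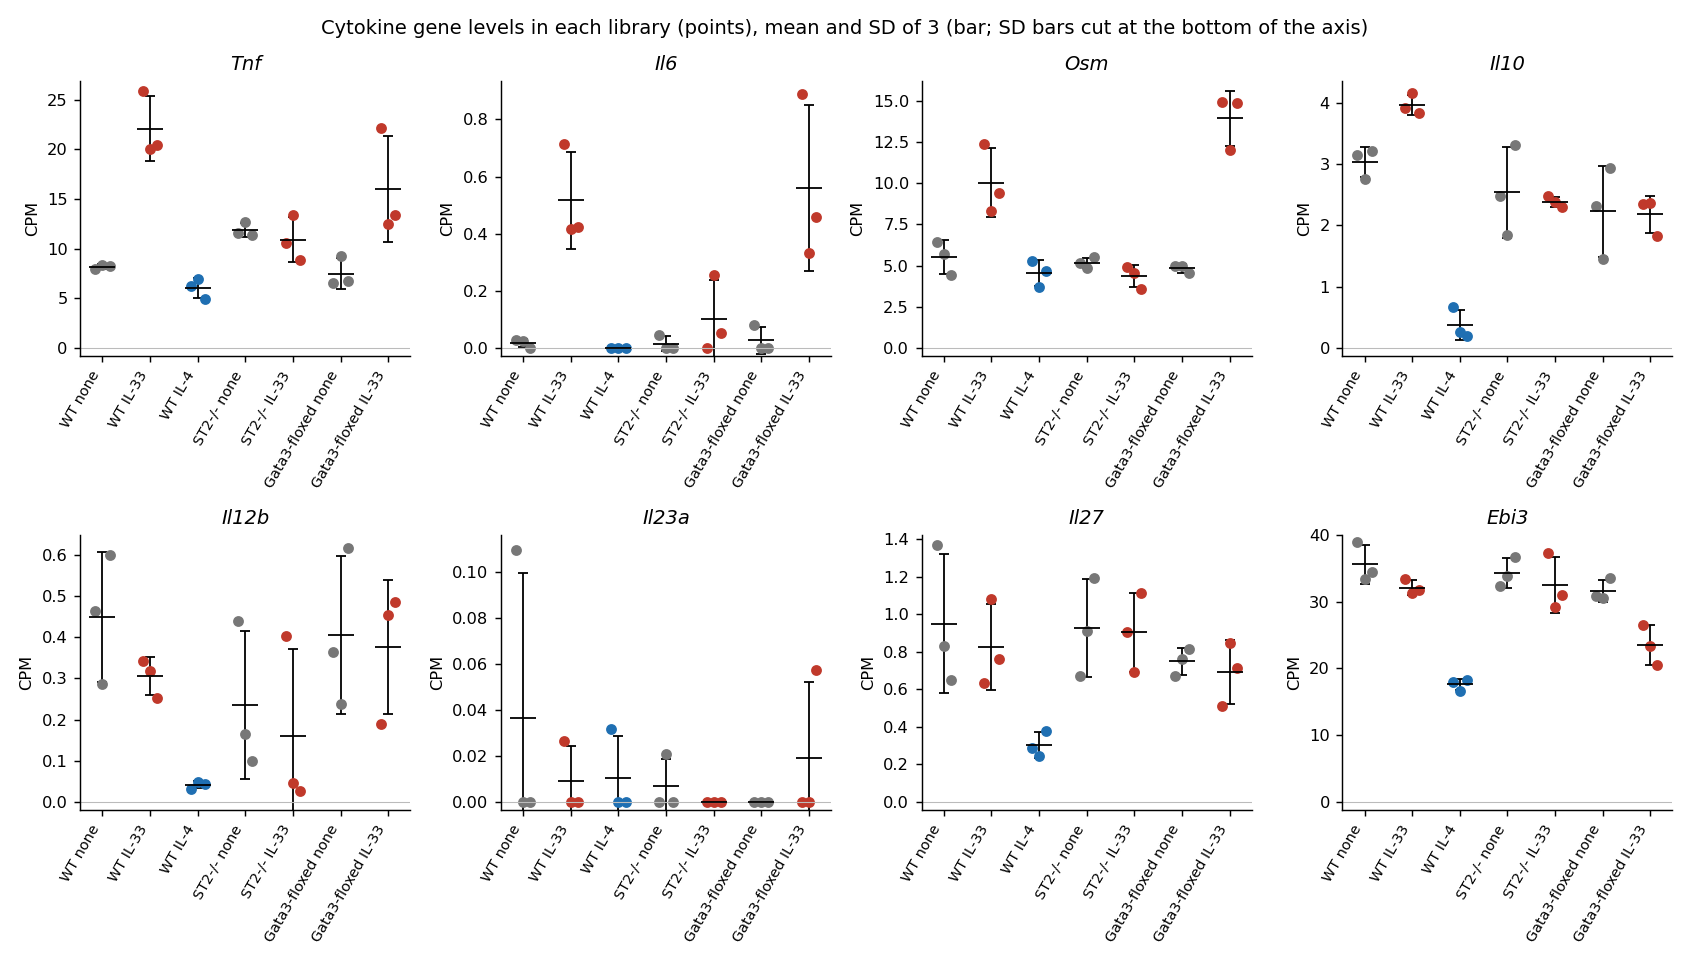
Level of each of the 8 genes in CPM (vertical axes, a separate linear scale for each gene) in all 21 libraries (points), with the mean and SD of each group of 3 (bars, cut at the bottom of the axis) and colours for no cytokine (grey), IL-33 (red) and IL-4 (blue). The IL-33 libraries of wild-type and Gata3-floxed cells stood above their controls for Tnf, Il6 and Osm, 1 ST2-/- library with IL-33 reached 0.254 CPM of Il6, and the IL-4 libraries were the lowest of all for Il10, Il27 and Ebi3 and below all wild-type controls for Il12b.

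The partners of these cytokines also moved with IL-33 in wild-type cells, where 18.5% of all genes tested were called higher and 16.9% lower. Of 12 TNF receptor and signalling genes, 8 were called higher and 0 lower, with a median log2 change of 0.31. The adaptor Traf1 (log2 change 1.04 ± 0.09) and the ubiquitin ligase Birc3 (1.04 ± 0.08) rose, as did Tnfaip3 (1.02 ± 0.09), whose product A20 limits NF-kB signalling, and Rhbdf2 (0.46 ± 0.07), whose product iRhom2 carries ADAM17 to the cell surface. Of 12 tested receptor, kinase and STAT genes of the IL-6 and IL-12 families, 7 were called higher and 2 lower (median 0.27). The receptor chain gene Il12rb1 rose from 0.273 to 1.87 CPM (2.77 ± 0.50) while its IL-12 receptor partner Il12rb2 fell from 6.56 to 2.14 CPM (-1.61 ± 0.16). Jak2 (0.73 ± 0.05) and Lifr (0.66 ± 0.10), the receptor chain of leukaemia inhibitory factor, rose. Osmr and Il23r had too few counts to be tested.

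Of 10 genes of the IL-10 receptor and of its STAT3 response, 8 were called higher and 1 lower with IL-33, with a median log2 change of 1.26. The shares over all genes were 18.5% higher and 16.9% lower. Socs3, which encodes the inhibitor of gp130 signalling, rose from 3.64 to 93.0 CPM, a 25.6-fold change (4.68 ± 0.37). The transcriptional repressor gene Nfil3 (2.21 ± 0.08), Il4ra (2.17 ± 0.11) and the IL-1 receptor antagonist gene Il1rn (1.92 ± 0.18) rose as well. The list is named for IL-10, although Il10 itself was not called and Socs3 also responds to IL-6 and oncostatin M. Il10ra, which encodes the ligand-binding IL-10 receptor chain and was picked out after its values were seen, fell slightly (-0.29 ± 0.05).

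Among 10 regulators of cytokine mRNA, 6 were called higher and 1 lower with IL-33 (median 0.28), where 18.5% of all genes were called higher and 16.9% lower. Arid5a, whose product stabilises Il6 mRNA, rose 2.99-fold (1.58 ± 0.11). Zc3h12a, which encodes the nuclease regnase-1 that degrades Il6 mRNA, rose 2.05-fold (1.04 ± 0.06). Zfp36, which encodes tristetraprolin, the protein that binds AU-rich elements such as the one shown for Tnf, rose 1.66-fold (0.73 ± 0.10), its relative Zfp36l1 rose 1.76-fold (0.81 ± 0.11) and Zfp36l2 fell 1.51-fold (-0.60 ± 0.05). Of 16 transcription factors known to act at these genes, 9 were called higher and 1 lower (median 0.31), led by Batf (0.98 ± 0.12), Cebpb (0.93 ± 0.17), Fos (0.84 ± 0.18) and Bhlhe40 (0.74 ± 0.09). Of 13 related cytokine genes only Clcf1 and Ltb could be tested, and Clcf1, a cardiotrophin-like member of the IL-6 family, rose to 0.431 CPM (2.60 ± 0.74, edgeR adjusted p = 0.00837).

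Markers of macrophages and of other cells moved too, where 18.5% of all genes were called higher and 16.9% lower. The 8 macrophage markers summed to 27775 to 30681 CPM without cytokine and to 36681 to 40574 CPM with IL-33. Of these 4 were called higher and 2 lower. Summed neutrophil markers were at 21.3 to 27.3 CPM without cytokine and 49.4 to 52.4 CPM with IL-33 (6 of 9 tested called higher), and dendritic cell markers were at 52.0 to 99.7 and 136 to 218 CPM (4 of 8 called higher). Mast cell and basophil markers summed to 7.78 to 11.5 and 3.41 to 6.48 CPM, with 3 of 6 called higher and 1 lower and with Mcpt4 and Tpsb2 at 0 in both groups. Lymphocyte and innate lymphoid markers summed to 197 to 228 and 162 to 182 CPM, with 2 of 9 called higher (Il5 and Il13, at 0 without cytokine) and 3 lower. Stromal markers stayed at or below 3.41 CPM, with 1 of 5 called. The part of these cells in the cytokine results was not tested, and in bulk RNA a change in the number of cells of a type cannot be told apart from a change in RNA per cell.

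The second comparison asked how IL-4, the classical inducer of alternative activation, changed the same genes. It shares its control libraries with the IL-33 comparison. Il10 fell 8.45-fold, Il27 fell 3.10-fold, Ebi3 fell 2.02-fold and Il12b fell to a few counts. Of the 7 genes tested, 0 were called higher and 4 lower, where 22.5% of all genes tested were called lower and 47.6% in either direction. The median log2 change was -1.63 over the 7 genes and 0.00477 over all genes.

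Il10 stood at 0.664, 0.266 and 0.200 CPM with IL-4, against 2.75 to 3.21 CPM in the controls. Every IL-4 library was below every other library of the data set for this gene. The log2 change was -3.08 ± 0.33 (edgeR adjusted p = 6.11e-08). The first IL-4 library was the highest of the 3, and without it the fall was 13.1-fold.

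Ebi3 stood at 38.9, 33.3 and 34.5 CPM without cytokine and at 18.0, 16.6 and 18.2 CPM with IL-4, with no overlap (log2 change -1.02 ± 0.09, edgeR adjusted p = 6.34e-09). Il27 stood at 1.37, 0.830 and 0.651 CPM and at 0.284, 0.242 and 0.377 CPM (-1.63 ± 0.38, adjusted p = 0.000974 in edgeR). Both chains of IL-27 thus had lower mRNA levels with IL-4. The exons of Il27 overlap 103 bases of Apobr on the other strand, which stood at 139 CPM without cytokine and 87.6 CPM with IL-4. Those of Ebi3 overlap 270 bases of the antisense gene Gm16712, which stood at 1.12 and 0.550 CPM. The strandedness of counting was not given in the sources used here, so reads in these overlaps cannot be told apart.

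Il12b had 17, 11 and 24 counts without cytokine and 1, 2 and 2 counts with IL-4. The groups did not overlap, and the control level was 10.7-fold higher (95% counting interval 4.29 to 34.2). The call had an edgeR adjusted p of 0.00247.

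Tnf, at 6.23, 6.94 and 4.95 CPM with IL-4, lay below all 3 controls but was not called (log2 change -0.44 ± 0.20, edgeR adjusted p = 0.0708). That call was near the threshold: without the second IL-4 library the change was -0.58 with an adjusted p of 0.0406 (edgeR), and 5 of the other settings tried also called it. Osm, at 5.31, 3.73 and 4.68 CPM, overlapped its controls (-0.27, interval -0.62 to 0.08, edgeR adjusted p = 0.196). Il6 had 0 counts in all 3 IL-4 libraries and 2 counts over the 3 controls, so no change was detectable at this depth.

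**Figure D3:**
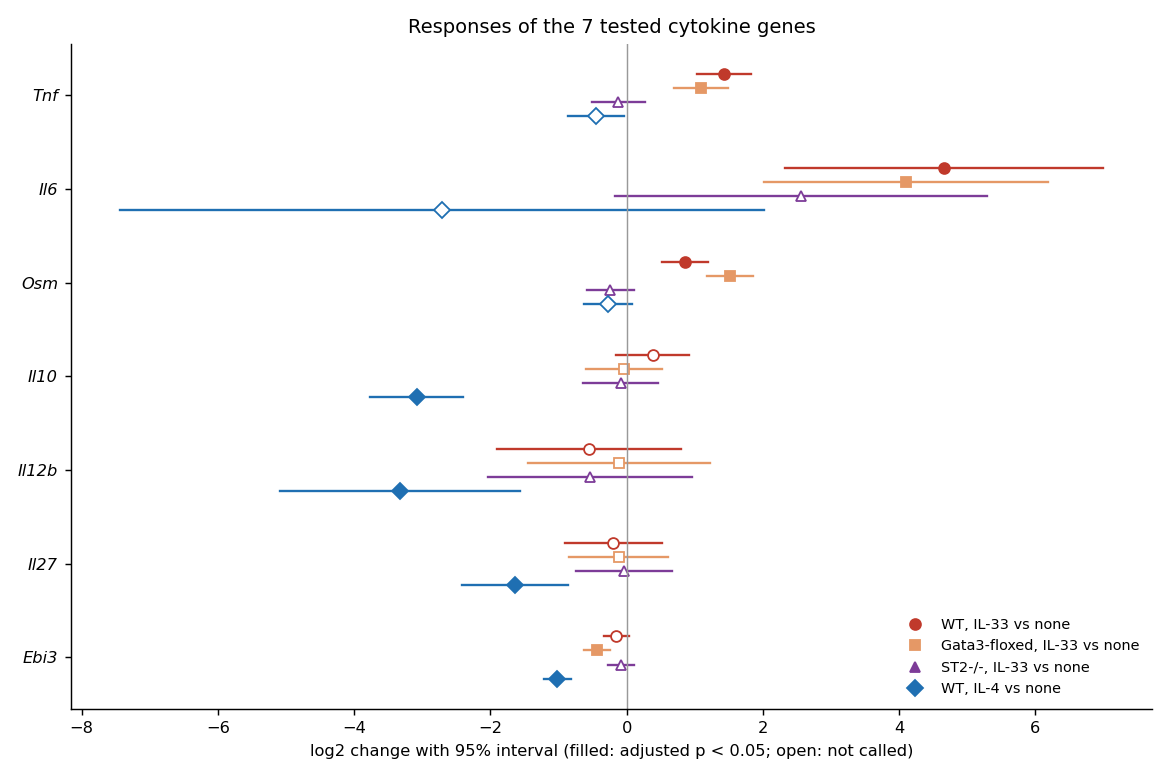
Fitted log2 change (horizontal axis) with its 95% interval for the 7 tested genes, for IL-33 against no cytokine in wild-type (red circles), Gata3-floxed (orange squares) and ST2-/- cells (purple triangles) and for IL-4 against no cytokine in wild-type cells (blue diamonds), filled where the adjusted p was below 0.05. Tnf, Il6 and Osm lay to the right of 0 with IL-33 in wild-type and Gata3-floxed cells, and Il10, Il12b, Il27 and Ebi3 lay to the left of 0 with IL-4.

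The partners did not share a direction with IL-4, where 25.1% of all genes tested were called higher and 22.5% lower. Of the TNF receptor and signalling genes 3 were called higher and 5 lower (median -0.13), and of the IL-6 and IL-12 family receptors, kinases and STATs 4 higher and 5 lower (median -0.10). Il27ra, the receptor chain of IL-27, rose 3.65-fold (1.87 ± 0.18), and Il11ra1 rose 3.11-fold (1.64 ± 0.09). Lifr fell 2.63-fold (-1.40 ± 0.11) and Stat4, the STAT of IL-12 signalling, fell 2.32-fold (-1.22 ± 0.32). Of the IL-10 receptor and response genes 4 were called higher and 4 lower (median -0.21). Nfil3 rose 4.70-fold (2.23 ± 0.08), Tnip3 (1.58 ± 0.14), Il1rn (1.58 ± 0.18) and Etv3 (1.09 ± 0.09) rose, and Il10ra fell 2.07-fold (-1.05 ± 0.06).

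Of the 16 transcription factor genes, 9 were called higher and 5 lower with IL-4 (median 0.42), where 25.1% of all genes were called higher and 22.5% lower. Maf, which encodes an activator of Il10 transcription, stood at 609, 554 and 547 CPM without cytokine and at 96.7, 105 and 84.1 CPM with IL-4, a 5.99-fold fall (-2.58 ± 0.08). Bhlhe40, a repressor of Il10 in T cells, stood at 34.7, 39.8 and 37.5 CPM and at 299, 331 and 298 CPM, an 8.28-fold rise (3.05 ± 0.09). Neither gene's groups overlapped. Nfkbiz, whose product IkB-zeta is needed for induction of Il6 and Il12b, fell 8.59-fold (-3.10 ± 0.10), and Irf4 rose 7.21-fold (2.85 ± 0.10). Of the 10 mRNA regulators 3 were called higher and 2 lower (median 0.08), among them Zfp36l2 (-0.47 ± 0.05) and Zc3h12a (0.44 ± 0.06). This was near the share over all genes, 47.6% in either direction. Of related cytokines Ltb, the lymphotoxin beta gene, fell to 0.451 CPM (-1.01 ± 0.38, edgeR adjusted p = 0.0337).

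With IL-4 the 8 macrophage markers summed to 14070 to 15632 CPM (2 called higher and 6 lower) and the dendritic cell markers to 863 to 1269 CPM (3 of 8 called higher, 1 lower). Neutrophil markers summed to 17.5 to 18.1 CPM, with 6 of 9 called lower, 1 higher and Ly6g at 0. Lymphocyte and innate lymphoid markers summed to 337 to 349 CPM, with 1 of 9 called higher and 2 lower. With IL-4 25.1% of all genes were called higher and 22.5% lower. The part of other cells in the IL-4 results was not tested.

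**Figure D4:**
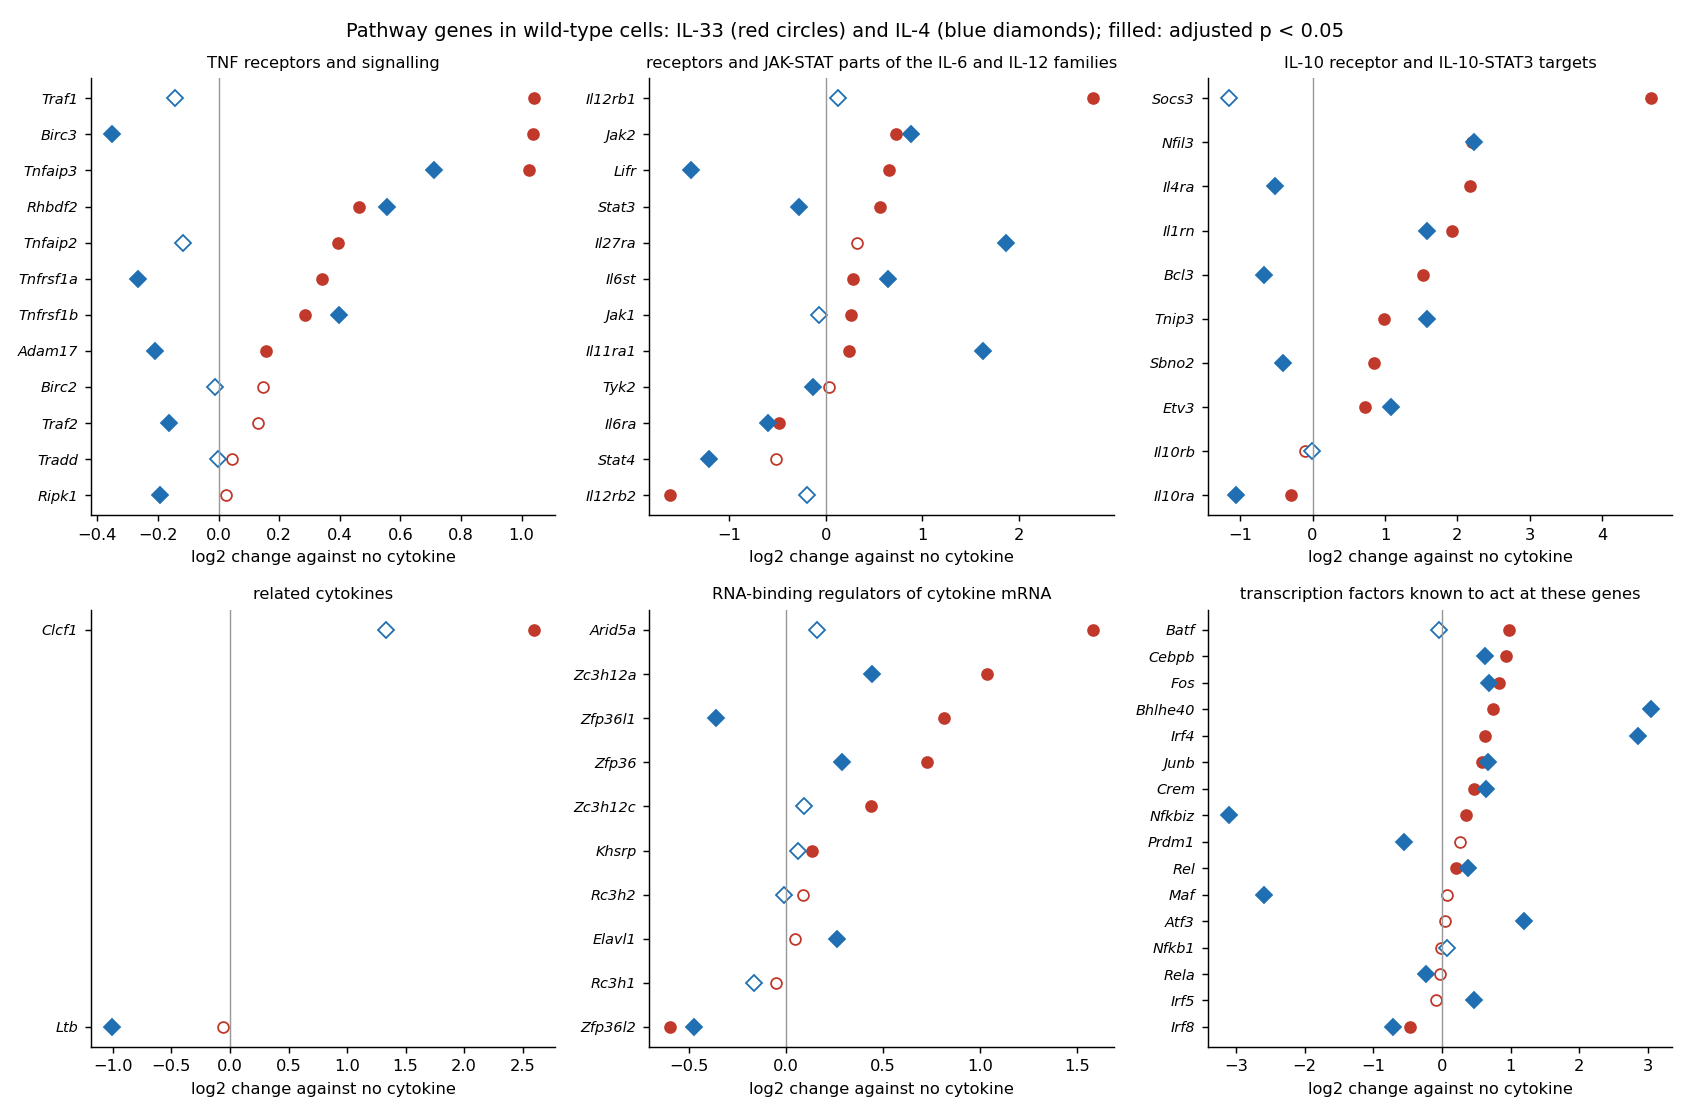
Fitted log2 change against no cytokine (horizontal axes, a separate scale in each panel) in wild-type cells of the tested genes of 6 lists, with IL-33 (red circles) and IL-4 (blue diamonds), filled where the adjusted p was below 0.05. Socs3 stood furthest to the right with IL-33 (4.68), and Nfkbiz (-3.10) and Maf (-2.58) stood furthest to the left with IL-4.

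Set directly against each other in wild-type cells, all 7 tested genes were called higher with IL-33 than with IL-4, where 19.2% of all genes tested were called higher and 39.9% in either direction. Il10 differed 11.0-fold (log2 3.47 ± 0.33, edgeR adjusted p = 1.05e-08), or 17.0-fold without the first IL-4 library. Tnf differed 3.66-fold (1.87 ± 0.19), Il27 2.71-fold (1.44 ± 0.38), Osm 2.20-fold (1.14 ± 0.17) and Ebi3 1.82-fold (0.87 ± 0.09). Il6 was at least 6.64-fold higher with IL-33, taking a floor of 3 counts per IL-4 library. As Il6 was among the 7 tested genes only through libraries with IL-33, its call here was not independent of that. Il12b was 7.24-fold higher by its counts (95% counting interval 2.83 to 23.7, edgeR adjusted p = 0.0147). For Il10, Il12b, Il27 and Ebi3 the difference came with a called fall under IL-4 and no called change under IL-33. For Tnf, Il6 and Osm it came with a called rise under IL-33.

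The third comparison asked whether the IL-33 response was seen in ST2-/- cells. None of the 7 genes was called, and neither was any of the 14473 genes in edgeR (percent called 0%), DESeq2 or limma-voom, while 507 genes and 0 of the 7 had an unadjusted p under 0.05 in edgeR. Tnf stood at 11.6, 12.7 and 11.4 CPM without cytokine and at 10.6, 13.4 and 8.83 CPM with IL-33 in these cells. The groups overlapped (log2 change -0.12, 95% interval -0.51 to 0.27). Osm stood at 5.14, 4.85 and 5.50 CPM and at 4.90, 4.58 and 3.60 CPM (-0.24, interval -0.59 to 0.11).

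The difference from the wild-type response was tested as an interaction. Tnf (-1.55 ± 0.26, edgeR adjusted p = 0.000135) and Osm (-1.10 ± 0.23, adjusted p = 0.00124 in edgeR) responded less in ST2-/- cells, and 2 of the 7 genes were called, where 12.1% of all genes were called lower and 22.7% in either direction. For Il6 the difference could not be resolved (-2.10, interval -6.92 to 2.71). Il6 had 2, 0 and 0 counts without cytokine in ST2-/- cells and 0, 11 and 2 with IL-33, so the second IL-33 library held most of the counts, and the ratio of 7.01 had a counting interval of 1.59 to 64.0. The change in Il6 within ST2-/- cells was not called (2.56, interval -0.17 to 5.29).

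Without cytokine, 0 of the 7 genes differed between ST2-/- and wild-type cells by the test (1.35% of all genes were called). Tnf was nearest: all 3 ST2-/- libraries lay above all 3 wild-type libraries, a log2 difference of 0.54 ± 0.19 with an edgeR adjusted p of 0.176. It was called in the fit with no filter on low counts (adjusted p = 0.000383, edgeR) and in the fit of these groups alone (0.0265). The fit with no filter called 875 genes in this comparison, against 196 in the main fit. Tnf was not called with DESeq2, limma-voom, RLE or upper-quartile scaling, the replicate block or any library left out.

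A comparison of IL-33-treated libraries, added after the data had been seen, called 4 of the 7 genes lower in ST2-/- than in wild-type cells, where 19.1% of all genes were called lower and 37.0% in either direction. Tnf (-1.01 ± 0.18, edgeR adjusted p = 0.000139) and Osm (-1.20 ± 0.16, edgeR adjusted p = 4.66e-06) were lower by 2.02-fold and 2.29-fold. Il10 stood at 2.47, 2.38 and 2.30 CPM in ST2-/- cells with IL-33, below all 3 wild-type IL-33 libraries (-0.73 ± 0.26, edgeR adjusted p = 0.0316). Il6 was 4.86-fold lower (counting interval 2.64 to 9.67, edgeR adjusted p = 0.0405). Among the 4, Il6 had enough counts to be tested only through libraries with IL-33, so its call was not independent of its level there. The Il10 call was lost whichever of the 6 libraries was left out (edgeR adjusted p 0.0556 to 0.0843), and the Il6 call was lost in 5 of 6 such fits (0.0618 to 0.145) and held without the second ST2-/- library (0.00762). The fitted Il6 fold ranged widely in these fits, from 3.22-fold lower without the first ST2-/- library to 18.2-fold lower without the second. In the same comparison 6 of 9 tested neutrophil markers, 4 of 6 mast cell or basophil markers and 3 of 8 dendritic cell markers were also called lower in ST2-/- cells, with 1 neutrophil marker and 1 mast cell or basophil marker higher. Their summed levels in the ST2-/- libraries with IL-33 were 21.02 to 25.1, 4.21 to 8.82 and 108 to 170 CPM. Of lymphocyte and innate lymphoid markers, 4 of 9 were called higher and 3 lower. Of the 8 macrophage markers, 1 was called higher and 4 lower. The part of these cells in the genotype difference was not tested.

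The fourth comparison asked how Gata3-floxed cells responded to IL-33. Tnf rose 2.14-fold, Osm rose 2.88-fold and Il6 rose from near absence, as in wild-type cells, and Ebi3 fell 1.35-fold. Of the 7 genes tested 3 were called higher and 1 lower, where 17.1% of all genes were called higher, 16.3% lower and 33.4% in either direction. Among the 3, Il6 had enough counts to be tested only through libraries with IL-33. Upper-quartile normalization turned the split over all genes from 2471 higher and 2364 lower to 2001 higher and 2985 lower, and left these 4 calls in place. The wild-type splits also turned, with IL-33 from 2676 higher and 2446 lower to 2251 and 3010. With IL-4 the split went from 3627 higher and 3263 lower to 3209 and 3718. The shares over all genes thus depend on the scaling.

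Tnf stood at 6.52, 9.25 and 6.73 CPM without cytokine and at 22.1, 12.5 and 13.4 CPM with IL-33 in Gata3-floxed cells. The groups did not overlap, and the first IL-33 library stood well above the other 2 (log2 change 1.10 ± 0.19, edgeR adjusted p = 8.75e-05). Osm stood at 4.98, 5.01 and 4.54 CPM and at 14.9, 12.0 and 14.8 CPM (1.52 ± 0.16, adjusted p = 1.39e-07 in edgeR). Its libraries were far apart.

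Il6 had 4, 0 and 0 counts without cytokine and 33, 11 and 16 with IL-33. The first library of each group held the most, the ratio was 18.8 (95% counting interval 6.98 to 71.3) and the edgeR adjusted p was 0.00301. Without the first unstimulated library the controls held 0 counts. Ebi3 stood at 30.9, 30.5 and 33.6 CPM without cytokine and at 26.5, 23.4 and 20.5 CPM with IL-33, with no overlap (-0.43 ± 0.09, edgeR adjusted p = 0.000845).

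Il10 stood at 2.31, 1.45 and 2.93 CPM and at 2.34, 2.36 and 1.83 CPM, and Il12b had 18, 10 and 25 counts and 7, 15 and 17 counts. Neither was called, nor was Il27 (0.748 ± 0.0736 and 0.691 ± 0.169 CPM, SD, n = 3).

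Among the partners, 7 TNF receptor and signalling genes were called higher and 0 lower of 12 in Gata3-floxed cells. Of 10 IL-10 receptor and response genes 8 were called higher and 2 lower. The shares over all genes were 17.1% higher and 16.3% lower. Socs3 rose 30.8-fold (4.94 ± 0.38), from 2.48 to 76.2 CPM. Of the 12 tested receptor, kinase and STAT genes of the IL-6 and IL-12 families, 6 were called higher and 3 lower. Of the 16 transcription factor genes 7 were called higher and 2 lower, and of the 10 mRNA regulators 5 higher and 1 lower. Cebpb rose 3.55-fold (1.83 ± 0.17), Stat3 1.72-fold (0.78 ± 0.06) and Arid5a 3.19-fold (1.67 ± 0.11). Macrophage markers summed to 25552 to 28063 CPM without cytokine and to 34738 to 35644 CPM with IL-33 (4 of 8 called higher, 1 lower). Summed neutrophil markers were at 45.5 to 51.4 CPM without cytokine and at 62.1 to 89.0 CPM with IL-33, with 5 of 9 tested called higher and 1 lower. Dendritic cell markers were at 105 to 172 and 225 to 261 CPM, with 3 of 8 higher and 1 lower. Of mast cell and basophil markers, 4 of 6 tested were called higher (Gata2, Mcpt8, Ms4a2 and Hdc) and 1 lower (Kit). Of lymphocyte and innate lymphoid markers, 2 of 9 were called higher (Il5 and Il13) and 3 lower. Stromal markers had 0 of 5 called higher and 2 lower (Col1a1 and Col1a2). The part of these cells in the result was not tested.

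No difference between the Gata3-floxed and wild-type responses was called among the 7 genes (1.22% of all genes were called, 0.539% higher and 0.677% lower). Osm was nearest, with a response larger by 0.66 ± 0.23 log2 units (edgeR adjusted p = 0.183). For Ebi3 the difference was -0.28 (interval -0.55 to -0.01, adjusted p = 0.337 in edgeR) and for Tnf -0.33 (interval -0.88 to 0.22). Unadjusted p-values under 0.05 were seen for Ebi3 and Osm. So although Ebi3 fell by the test in Gata3-floxed cells and not in wild-type cells, the responses were not shown to differ.

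Without cytokine, 0 of the 7 genes were called between Gata3-floxed and wild-type cells (9.85% of all genes were called, 5.60% higher and 4.25% lower). With IL-33, in a comparison added after the data had been seen, 2 of the 7 were called lower in Gata3-floxed cells, where 5.85% of all genes were called lower and 11.3% in either direction. Ebi3 was 1.37-fold lower (-0.45 ± 0.09, edgeR adjusted p = 0.00234) and Il10 1.82-fold lower (-0.86 ± 0.27, edgeR adjusted p = 0.0381). The Il10 call was lost whichever of the 6 libraries was omitted (0.0657 to 0.146). Neutrophil markers were called higher in Gata3-floxed cells for 5 of 9 tested, both with IL-33 and without cytokine, and with IL-33 the macrophage markers Adgre1 and Csf1r were called lower and Mertk higher. Their part in the genotype difference was not tested. Osm was higher in the mean and missed the threshold (0.48 ± 0.16, edgeR adjusted p = 0.0518), and was called without the second Gata3-floxed library (0.0335) or the first wild-type one (0.0109). It was also called with the replicate block. With all libraries kept, 3 of the 7 genes were called with DESeq2, limma-voom, upper-quartile scaling or that block, and 4 with no filter. Tnf was not called (-0.46, 0.111), but was without the first Gata3-floxed library (-0.77, edgeR adjusted p = 0.00571).

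Across the 21 libraries, the levels of Tnf, Il6 and Osm varied alike, and so did those of Il10, Il27 and Ebi3. Pearson's r between log2 levels was 0.84 for Il6 and Osm, 0.81 for Tnf and Il6, and 0.72 for Tnf and Osm, and it was 0.83 for Il10 and Ebi3, 0.81 for Il27 and Ebi3, and 0.78 for Il10 and Il27. Between Tnf, Il6 or Osm on the one side and Il10, Il27 or Ebi3 on the other, r ran from -0.09 (Osm and Ebi3) to 0.59 (Tnf and Il10). Il12b was less like either set, with r of 0.60 (Il10), 0.49 (Ebi3), 0.43 (Il27), 0.39 (Osm), 0.23 (Tnf) and 0.19 (Il6). Il6 had 0 counts in 9 of the 21 libraries, so its r values largely set libraries with IL-33 against libraries at or near 0. The r values describe libraries that share 7 conditions and are not tests.

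Among 10212 other protein-coding genes, the one most like Tnf over the 21 libraries was Icam1, an adhesion molecule gene (r = 0.94), followed by Ehd1 and Nfkbie (0.94 and 0.92). Il6 was most like Chsy1, Socs3 and Casp4 (all 0.94 after rounding), and Osm most like Cd300lf (0.95), Coro2a (0.95) and Inpp5b (0.94). Il10 was most like Sh3bp1, Ms4a6b and Hacd4 (all 0.96), and Ebi3 most like Rbfa (0.95), Ddx41 (0.95) and Limd2 (0.95). Il27 was most like Ift81 and Mast3 (both 0.89), and Il12b had the weakest best likeness, with Orc5 (0.87). With group means removed, r for the pairs so chosen was lower, from 0.38 (Ebi3 and Rbfa) to 0.77 (Tnf and Icam1).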

How the data were processed

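RNA of 21 libraries of cultured mouse macrophages, 7 groups of 3, was sequenced as pairs of 150-base reads from 1 ug of RNA. The deposited values were raw read counts per gene. Per the submitters' processing notes, the build was GRCm38 (mm10), and the tools were DESeq2 1.22.2, HTSeq 0.6.1 and HISAT2 2.0.5. The annotation and strandedness were not given in the sources used here. Groups came from the strain and stimulation labels, and replicate numbers from the titles.

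Counts were fitted in edgeR 4.0.16 (R 4.3.3) with 1 quasi-likelihood model of all 7 groups, TMM scaling and the filterByExpr filter, which kept 14473 of 47069 genes and at least 99.97% of the counts of each library. The common dispersion was 0.00740, and 14 residual degrees of freedom remained. The SE and 95% interval of a log2 change were computed back from the change and its test statistic. They are approximate, above all for genes with few counts. Benjamini-Hochberg adjustment ran over all genes tested within a comparison, and genes were called at an adjusted p below 0.05. There were 9 planned comparisons and 2 added after the data had been seen. Other fits used DESeq2 1.42.0, limma-voom (limma 3.58.1), upper-quartile or RLE scaling, no filter, only the groups compared, a replicate block and each library left out. The edgeR, limma-voom and DESeq2 fits were run on simulated data for IL-33 against no cytokine in wild-type cells only. The other comparisons, the other settings and the intervals were not tested in this way. Where a group held few counts, ratios carry exact binomial 95% intervals, which, like the floor of 3 counts per library, cover counting error only.

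The members and gene lists were chosen with earlier results of these data known. The text names the 8 genes in every comparison, up to 4 called genes of the largest change per list and comparison, and up to 3 genes most alike in pattern with a mean of at least 1 log2 CPM. Of 47069 identifiers, 46574 matched GENCODE M21, which gave positions, exon lengths and 3′ regions. Regions of similar length were those within 25%.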

Additional observations from a re-analysis of the deposited data

Results flagged for a closer look

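For the 8 cytokine genes in both genotypes, and for the genes of the 6 lists in Gata3-floxed cells, 4 differences from the wild-type response to IL-33 passed the test of the difference itself (edgeR interaction, adjusted over all genes tested). Over all genes 3284 such differences passed for ST2-/- cells (22.7% of the genes tested) and 176 for Gata3-floxed cells (1.22%). In ST2-/- cells they included 8 of 12 TNF receptor and signalling genes, all lower, and 9 of 10 IL-10 receptor and response genes, 8 lower and 1 higher. Of 12 tested receptor, kinase and STAT genes 4 were lower and 2 higher, and of 16 transcription factors 7 lower and 1 higher. Of 10 mRNA regulators 4 were lower and 1 higher, and of 2 tested related cytokines 0 were called. The Tnf response was lower in ST2-/- than in wild-type cells by a log2 difference of -1.55, and the Osm response by -1.10. In ST2-/- cells neither gene's libraries separated with IL-33, and in wild-type cells all 3 IL-33 libraries of each gene were above all 3 controls.

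Between Gata3-floxed and wild-type cells the response of Jak2, a kinase of the gp130 and IL-12 receptors, differed by -0.39 (edgeR adjusted p = 0.00528). Jak2 stood at 45.7 and 76.0 CPM without and with IL-33 in wild-type cells and at 47.9 and 60.6 CPM in Gata3-floxed cells. The response of Zfp36l2, a relative of tristetraprolin, differed by 0.29 (edgeR adjusted p = 0.0484), from 631 to 417 CPM in wild-type and from 594 to 479 CPM in Gata3-floxed cells. Neither difference was checked in the other fits, and that of Zfp36l2 lay near the threshold. Jak2 was 1 of 12 tested genes of its list and Zfp36l2 was 1 of 10, and 0 other genes of the lists were called. With a library left out, this comparison had 52 to 273 calls. The floxed genotype and sex cannot be told apart in these libraries.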

How the results depend on the processing

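Of 349 alternative values for the 26 called results of the cytokine genes, 332 kept their direction and their side of the threshold, and the lost calls were those of Il10 and Il6 in the 2 added comparisons under leaving out a library. For the 17 results not called whose log2 change was recomputed, 223 of 243 alternative values stayed so, 17 passed the threshold and 3 changed sign, the latter all on leaving out 1 library: Tnf with IL-33 in ST2-/- cells (range -0.297 to 0.00911), Il27 with IL-33 in wild-type cells (-0.45 to 0.15) and the Il6 difference for ST2-/- cells (-4.02 to 0.45). For the remaining results not called, only the number of cytokine genes called was recomputed. The changes of single genes outside the cytokine genes were not recomputed. With no filter, 70 genes were called for IL-33 in ST2-/- cells. The difference of the Gata3-floxed response had 176 calls, 384 with DESeq2, 555 with no filter and 355 with the replicate block, and 52 to 273 with a library left out. Unstimulated ST2-/- against wild-type cells had 196 calls, 438 with DESeq2, 875 with no filter, 590 with the replicate block and 54 to 208 with a library left out, and 1 of the cytokine genes, Tnf, was called with no filter and in a fit of only the groups compared. Unstimulated Gata3-floxed against wild-type cells had 1425 calls and 658 to 1239 with a library left out. With IL-33, Gata3-floxed against wild-type cells had 1642 calls (1004 to 1458) and 2 cytokine genes called (1 to 2). The latter count was 3 with DESeq2, limma-voom, upper-quartile scaling or the replicate block, and 4 with no filter. ST2-/- against wild-type cells with IL-33 had 4 cytokine genes called (2 to 3). The labels state no pairing of the samples by replicate number. Deviations from the group means correlated little between libraries of the same number (-0.03 to 0.11 over all genes tested), which does not exclude pairing. Among the cytokine genes the replicate block moved 2 calls, Tnf with IL-4 (-0.45, edgeR adjusted p = 0.0423) and Osm in IL-33-treated Gata3-floxed against wild-type cells (0.49, 0.0177). Il12b was too low for the fit of only the IL-33 and IL-4 groups. Depth limits Il6, Il12b, Il23a and Il27, for which a library holds few or no counts.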
